A study of Mus musculus with 13 samples.

Results

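The genes that write, copy and remove DNA methylation were followed through blood differentiation of mouse embryonic stem (ES) cells in culture. The set holds 8 genes, chosen by symbol and not by their values, of 45250 in the deposited table. These are the maintenance methyltransferase Dnmt1 and its partner Uhrf1, the de novo methyltransferases Dnmt3a and Dnmt3b, their cofactor Dnmt3l, and the 3 dioxygenases Tet1, Tet2 and Tet3. RNA was measured in 13 libraries of 5 groups. Flk-1+ cells, isolated by magnetic sorting for Flk-1 from embryoid bodies, gave 3 libraries each from WT (the CCB line), Lmo2-/- and Tal1-/- ES cells. Haemogenic endothelium 1 (HE1), the next stage of the culture, sorted as Tie2+ Kit+ CD41-, gave 2 libraries each from WT and Lmo2-/- cells. Each genotype is represented by a single named ES line with no treatment, so genotype and line cannot be told apart.

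In this system the mesodermal Flk-1+ population gives rise to haemogenic endothelium, the endothelium from which blood cells emerge. LMO2 is a bridging protein of a complex that holds the DNA-binding factor TAL1, and both are needed for blood formation. Methylation of cytosine in CG dinucleotides (CpG) is copied after replication by DNMT1, which UHRF1 brings to newly made, hemimethylated DNA. DNMT3A and DNMT3B set new methylation, and DNMT3L, which has no catalytic activity of its own, stimulates them in germ cells and early embryonic cells. TET enzymes oxidise 5-methylcytosine, which leads to loss of the mark through replication or base excision repair. Dnmt3b and Tet1 are known for high expression in pluripotent cells, and Tet2 and Dnmt3a for roles in blood stem cells.

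The 4 genes whose levels were called different between the stages with the deposited values (Dnmt3b, Dnmt3a, Tet2 and Tet3) are shown by the 150 bases before a RefSeq transcription start, read 5′ to 3′ on the strand of the gene, with each CpG in capitals. RefSeq gave 15 such starts for the 8 members, in GRCm38.p6. The Dnmt3b window is chr2:153649299-153649448 on the plus strand, before the annotated gene. The windows of Dnmt3a (chr12:3806830-3806979, plus strand), Tet2 (chr3:133544391-133544540, minus strand) and Tet3 (chr6:83441679-83441828, minus strand) lie inside the longer GENCODE genes, and none of the 4 windows overlaps an annotated exon of its gene.
Dnmt3b: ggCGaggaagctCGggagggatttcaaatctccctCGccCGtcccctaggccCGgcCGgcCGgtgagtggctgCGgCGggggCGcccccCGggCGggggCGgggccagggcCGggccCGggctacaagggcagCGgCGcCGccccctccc
Dnmt3a: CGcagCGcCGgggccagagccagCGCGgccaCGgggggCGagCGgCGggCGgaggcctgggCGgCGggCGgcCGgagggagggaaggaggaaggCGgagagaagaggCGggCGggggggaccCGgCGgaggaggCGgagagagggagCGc
Tet2: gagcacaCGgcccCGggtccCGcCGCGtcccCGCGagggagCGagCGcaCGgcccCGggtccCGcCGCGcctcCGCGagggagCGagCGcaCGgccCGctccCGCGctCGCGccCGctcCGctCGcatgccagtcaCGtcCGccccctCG
Tet3: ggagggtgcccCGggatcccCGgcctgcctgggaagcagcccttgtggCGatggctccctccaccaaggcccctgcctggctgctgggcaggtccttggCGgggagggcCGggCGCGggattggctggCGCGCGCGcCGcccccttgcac
The full windows of 250 bases held 21 CpG for Dnmt3b, 38 for the Dnmt3a start shown (40 and 15 for its other 2 starts), 51 for Tet2 and 17 for Tet3, against a median of 6 (quartiles 2 and 16) over 32536 promoters of the same length. The Tet2 window thus held more CpG than 99.9% of all promoters. Both the gene that was lower in HE1 and the 3 that were higher had more CpG than most promoters, so this count did not divide them. Among the other members, the windows held 15 CpG for Tet1, 10 and 30 for the 2 starts of Uhrf1, between 2 and 26 for the 3 starts of Dnmt1, and between 3 and 5 for the 3 starts of Dnmt3l. The letters TTTCGCGC, an E2F motif searched on both strands, were found in 1 window each of Dnmt1 and Uhrf1 and in 0.258% of all promoters. The shorter motifs GATA and CANNTG were common, in 53.4% and 66.2% of all promoters (overlapping matches counted), and are not listed here. CAGATG, a TAL1 E-box, was found in 14.4% of all promoters and, among the members, only in 1 window of Dnmt3l.

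Levels are in FPKM, fragments scaled to transcript length and sequencing depth, as given by the authors, and the number of fragments behind each value is not given. The libraries are numbered from 0 as in the deposited table. In 12 libraries 11861 to 15641 genes were above 0, but only 9694 in Lmo2-/- HE1 library 1, which also listed 191 of 4079 well expressed genes at 0 (at most 59 in any other). Rescaling the libraries to a common median multiplied this library by 0.465 and the others by 0.749 to 1.26. The targeted genes followed the labels in Flk-1+ cells, where Lmo2 was 21.6 to 30.8 FPKM in WT and 2.17 to 6.48 in Lmo2-/-, and Tal1 was 22.0 to 37.4 in WT and 2.74 to 3.41 in Tal1-/-. In HE1, Lmo2 was 4.30 and 20.6 in WT and 6.42 and 0 in Lmo2-/-, so it did not separate the genotypes there. Of the genes of the gates, Kdr (Flk-1) was 68.7 FPKM or more in all 13 libraries, and Tek (Tie2) and Kit were 121 to 176 and 42.4 to 68.5 in HE1, against 0 to 2.27 and 2.11 to 10.7 in Flk-1+ cells. Itga2b (CD41), against which HE1 was sorted, was 10.4 and 15.4 in WT HE1 and 19.8 and 0 in Lmo2-/- HE1, against 0 to 5.54 in Flk-1+ cells. A list of 10 endothelial genes, which holds Tek, summed to 816 to 1110 FPKM in HE1 and 9.34 to 66.5 in Flk-1+ cells. They also carried more fibroblast and smooth muscle RNA, with sums over 11 genes of 213 to 255 FPKM in WT HE1, 507 to 1602 in Lmo2-/- HE1 and 13.5 to 42.2 in Flk-1+ cells.

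HE1 values also depended on the length of the transcript. For genes whose longest GENCODE transcript was under 2000 bases, the median log2 fold change from Flk-1+ to HE1 was -0.21 in WT and -0.49 in Lmo2-/-. For genes over 8000 bases it was 0.71 in WT and 1.45 in Lmo2-/-. The members span this range, with 3586 bases for Uhrf1, 4320 for Dnmt3b, 5870 for Dnmt1, 9179 for Tet2, 9685 for Dnmt3a, 10904 for Tet3 and 14369 for Tet1. Each stage result of a member is therefore given with the deposited values and after removing this trend from every library, an alternative chosen after seeing the data. In the plot against transcript length, Tet3 lies above the median of its length class in both genotypes, by more than its SE. Dnmt3b and Tet1 lie below theirs by more than their SE in both genotypes. Flk-1+ libraries differed among themselves as well, in the median deviation of genes over 8000 bases from their mean over all libraries. It was 0.049 in WT library 0 and -0.077 in Tal1-/- library 0, against -0.33 to -0.56 in the other Flk-1+ libraries (log2).

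**Figure D1:**
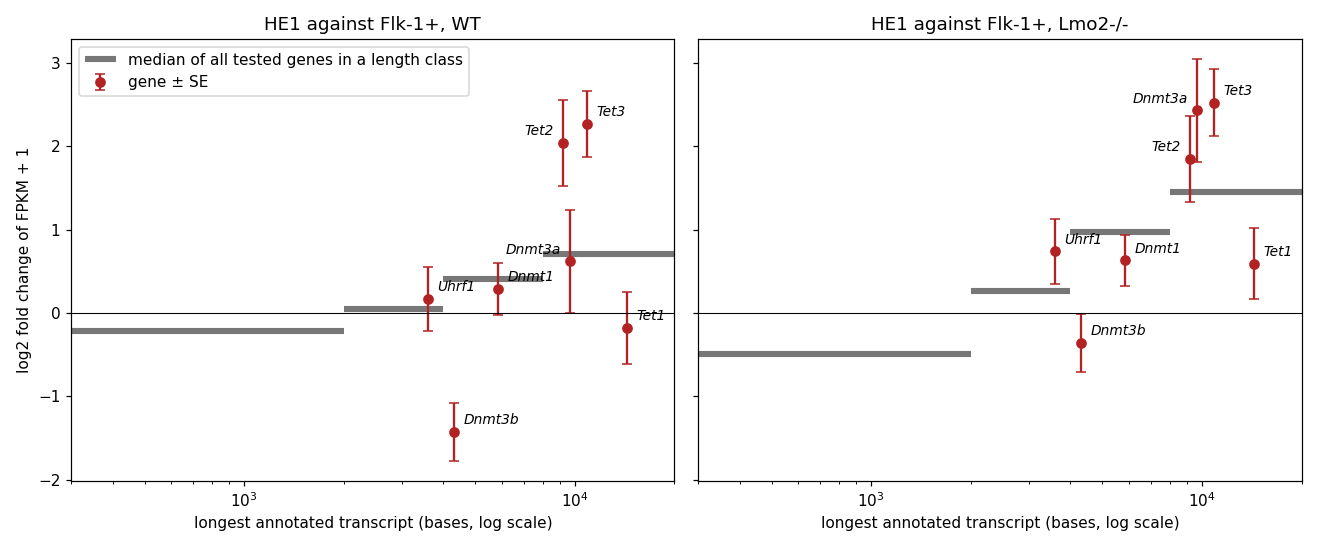
Log2 fold change from Flk-1+ to HE1 (y axis, on FPKM + 1) against the longest annotated transcript in bases (x axis, log scale) for WT and Lmo2-/-. Red points are the 7 tested genes with their SE and grey bars the median of all tested genes in 4 length classes, which run from -0.21 to 0.71 in WT and from -0.49 to 1.45 in Lmo2-/-.

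Of the 8 genes, 7 passed the filter on low values, and Dnmt3l did not. Dnmt3l was 0.0909 FPKM in WT Flk-1+ library 1 and 0.149 in Lmo2-/- Flk-1+ library 2, and was listed at 0 in the other 11 libraries. Its mean was far below that of every other member in every group. The other members lay between 5.03 FPKM (Tet3 in a Tal1-/- Flk-1+ library) and 153 FPKM (Dnmt3a in Lmo2-/- HE1 library 1). In the order of group means, Tet3 led in Lmo2-/- HE1 (68.9 ± 8.50 FPKM, SD, n = 2), followed by WT HE1 (41.8 ± 0.803, n = 2), and these 2 groups did not overlap with each other or with Flk-1+ cells. Dnmt3b was lowest in WT HE1 (8.27 ± 0.443, n = 2), apart from the next group, Lmo2-/- HE1 (17.1 ± 1.22, n = 2), and the groups above overlapped with their neighbours. Every neighbour in the order overlapped for Uhrf1, Dnmt3a and Tet1.

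**Figure D2:**
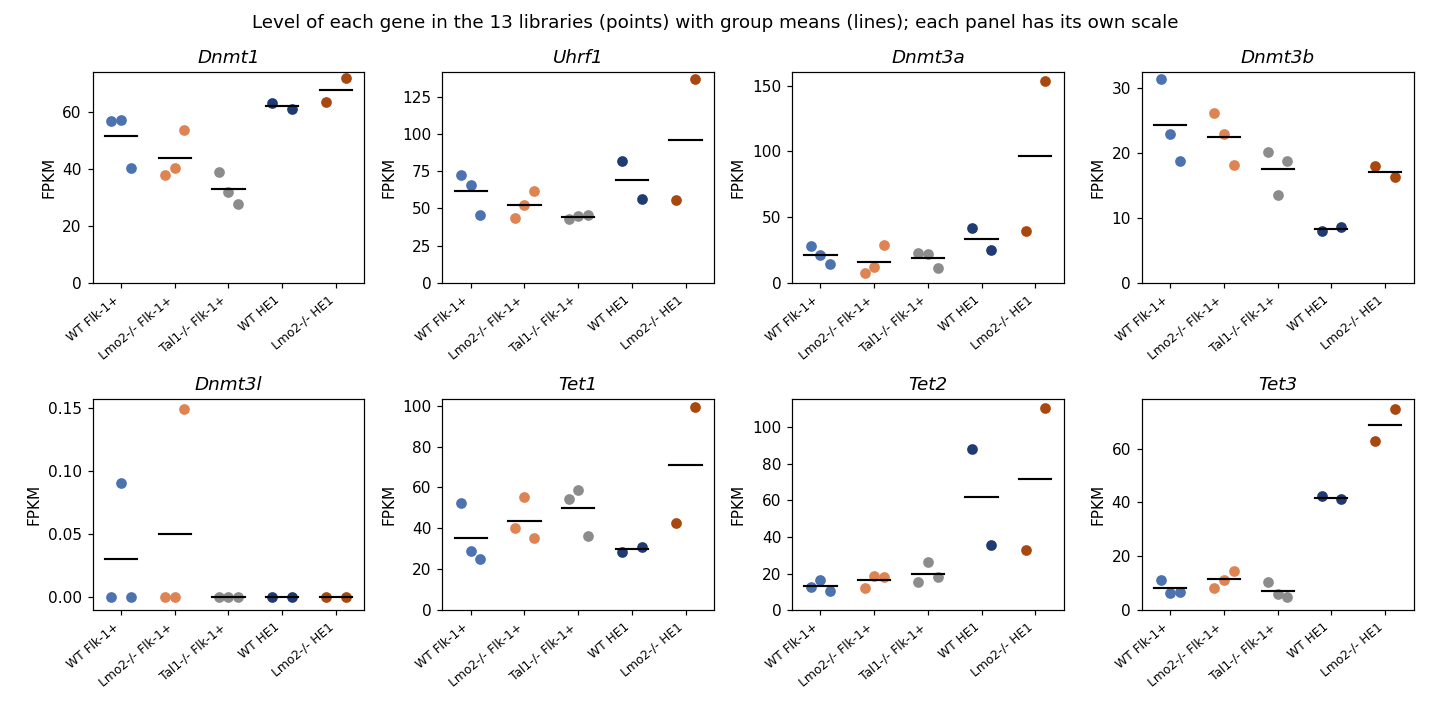
FPKM (y axis, own scale in each panel) of the 8 genes in the 13 libraries, by group (x axis); points are libraries and lines group means. Tet3 is 5.03 to 14.5 in all 9 Flk-1+ libraries and 41.3 to 74.9 in the 4 HE1 libraries, and Dnmt3l is at or near 0 throughout.

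The question of the first comparison is how these levels differ between the Flk-1+ and HE1 stages. Tet3 rose in both genotypes, and Dnmt3b fell in WT. In Lmo2-/- cells Dnmt3b was called lower only after quantile normalization, rescaling to a common median or removal of the length trend. With the deposited values Tet2 also rose in both genotypes and Dnmt3a in Lmo2-/- cells, whereas no difference in Dnmt1, Uhrf1 or Tet1 passed the test. In WT, 3 of the 7 tested members were called (limma on log2(FPKM + 1), Benjamini-Hochberg adjusted p below 0.05 over 13802 genes and a mean FPKM above 10 in a group), 2 higher and 1 lower, against 6.98% of all tested genes, 6.04% higher and 0.942% lower. Among Lmo2-/- libraries 3 of 7 were called, all higher, against 19.6% of all tested genes, 17.2% higher and 2.38% lower. After the length trend was removed, 1 of 7 was higher (Tet3) and 1 lower (Dnmt3b) in each genotype, against backgrounds of 4.1% and 1.32% in WT and 6.98% and 2.25% in Lmo2-/- (5.42% and 9.22% in all). Over the mean of both genotypes Tet3 was then higher and Dnmt3b and Tet1 lower, against 10.5% and 4.11% of all genes (14.6% in all). As the mean of both genotypes, 3 were higher (Tet3, Tet2 and Dnmt3a) and 1 lower (Dnmt3b) with the deposited values, against 18.9% and 3.18% of all genes (22.1% in all). The scaling moved the split over all genes, which was 834 higher and 130 lower in WT and 2379 and 328 in Lmo2-/- with the deposited values. It was 464 and 260 in WT and 685 and 563 in Lmo2-/- after quantile normalization, and 424 and 309, and 617 and 746, after rescaling to a common median. Removing the length trend moved the median of all genes from 0.20 to -0.0031.

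Dnmt1 was 40.3 to 57.2 FPKM in WT Flk-1+, 63.3 and 61.2 in WT HE1, 37.8 to 53.6 in Lmo2-/- Flk-1+, and 63.6 and 71.9 in Lmo2-/- HE1. Uhrf1 was 45.9 to 72.5 in WT Flk-1+, 82.2 and 56.1 in WT HE1, 43.3 to 62.0 in Lmo2-/- Flk-1+, and 55.6 and 137 in Lmo2-/- HE1. The stages did not overlap for Dnmt1 in either genotype, which was also so for 44.9% of all tested genes in WT and 47% in Lmo2-/-, and they overlapped for Uhrf1. The mean log2 fold change over both genotypes was 0.46 ± 0.22 for Dnmt1 (limma adjusted p = 0.127) and 0.45 ± 0.27 for Uhrf1 (adjusted p = 0.229). The values after removal of the trend were -0.29 ± 0.19 and 0.13 ± 0.25, and under quantile normalization and the common median both were below 0, so neither gene has a direction that the scaling leaves in place.

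Dnmt3b was 31.3, 23.0 and 18.8 FPKM in WT Flk-1+ libraries and 7.95 and 8.58 in WT HE1. The Lmo2-/- values were 26.2, 23.0 and 18.1 in Flk-1+ and 17.98 and 16.3 in HE1. The WT stages were well apart, whereas in Lmo2-/- cells the highest HE1 library lay just below the lowest Flk-1+ library. Dnmt3b fell by 1.42 on the log2 scale in WT (SE 0.35, limma adjusted p = 0.0201), and its log2 fold change was -0.36 ± 0.35 (adjusted p = 0.466) in Lmo2-/-. The WT call was lost without WT Flk-1+ library 1, WT HE1 library 0 or WT HE1 library 1, with log2 fold changes of -1.45, -1.38 and -1.47. Once the length trend was removed, Dnmt3b fell by 1.72 (SE 0.32, limma adjusted p = 0.00507) in WT and by 1.04 (SE 0.32, adjusted p = 0.0462) in Lmo2-/-. Dnmt3b was also called lower in Lmo2-/- after quantile normalization (-1.22) and rescaling (-1.29). In the authors' pooled FPKM per condition it was 27.1 in WT Flk-1+ and 9.15 in WT HE1, and 23.7 and 12.8 in Lmo2-/-. The difference between the genotypes in this stage change was 1.07 ± 0.49 and did not pass the test (limma adjusted p = 0.404).

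Dnmt3a was 27.8, 21.2 and 14.6 FPKM in WT Flk-1+ libraries and 41.4 and 24.9 in WT HE1, which overlapped. In Lmo2-/- cells it was 7.09, 12.3 and 28.5 in Flk-1+ and 39.6 and 153 in HE1. The Lmo2-/- stages did not overlap, with the widest spread of any member in Lmo2-/- HE1. The log2 fold change was 2.43 ± 0.62 (limma adjusted p = 0.0123) in Lmo2-/- and 0.62 ± 0.62 (adjusted p = 0.589) in WT. The call in Lmo2-/- was lost without Lmo2-/- HE1 library 1, where the value was 1.47, and without the length trend, where it was 1.07 ± 0.56 (limma adjusted p = 0.208). Quantile normalization (1.402) and rescaling (1.45) ended it as well. The genotypes were not shown to differ in this change (difference 1.81 ± 0.87, limma adjusted p = 0.424). In the authors' pooled FPKM per condition, Dnmt3a was 16.1 in WT Flk-1+ and 16.6 in WT HE1, and 11.9 and 35.3 in Lmo2-/-.

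Tet1 was 52.6, 28.7 and 25.2 FPKM in WT Flk-1+ libraries and 28.4 and 31.0 in WT HE1. The level in Lmo2-/- was 40.4, 55.2 and 35.2 in Flk-1+ and 42.4 and 99.5 in HE1. The stages overlapped in both genotypes. The log2 fold change was -0.18 ± 0.43 (limma adjusted p = 0.848) in WT and 0.59 ± 0.43 (adjusted p = 0.325) in Lmo2-/-. In the authors' pooled FPKM per condition, Tet1 was instead lower in HE1 in both genotypes. It was 30.3 in Flk-1+ and 21.6 in HE1 for WT, and 38.4 and 33.1 for Lmo2-/-. Tet1 has the longest transcript of the members. Removing the length trend gave -0.97 ± 0.33 (limma adjusted p = 0.0940) and -0.94 ± 0.33 (adjusted p = 0.0733), and the mean of both genotypes fell by 0.95 (SE 0.23, adjusted p = 0.0108).

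Tet2, the TET enzyme most often mutated in blood disorders, was 12.4, 16.3 and 10.5 FPKM in WT Flk-1+ libraries and 88.3 and 35.4 in WT HE1. In the Lmo2-/- libraries Tet2 was 12.3, 18.4 and 18.3 in Flk-1+ and 32.7 and 110 in HE1. Every HE1 library lay above every Flk-1+ library, but the 2 HE1 libraries of each genotype differed by more than the HE1 means of WT and Lmo2-/-. The log2 fold change was 2.04 ± 0.51 (limma adjusted p = 0.0244) in WT and 1.84 ± 0.51 (adjusted p = 0.0195) in Lmo2-/-. Without the length trend it was 1.39 ± 0.49 (limma adjusted p = 0.108) in WT and 0.52 ± 0.49 (adjusted p = 0.503) in Lmo2-/-, and neither passed. After quantile normalization and rescaling it stayed called in WT (1.58 and 1.57) and not in Lmo2-/- (0.79 and 0.87). The WT call also needed WT HE1 library 0 (1.396 without it) and WT Flk-1+ library 2 (1.91 without it), and the Lmo2-/- call needed Lmo2-/- HE1 library 1 (0.98 without it) and Lmo2-/- Flk-1+ library 0 (1.67 without it).

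Tet3, the TET enzyme best known for its action on the paternal genome of the zygote, was 11.1, 6.42 and 6.78 FPKM in WT Flk-1+ libraries 0 to 2 and 42.4 and 41.3 in WT HE1. In Lmo2-/- cells it was 8.38, 11.3 and 14.5 in Flk-1+ and 62.9 and 74.9 in HE1. The stages did not overlap in either genotype, and all 4 HE1 libraries lay above all 9 Flk-1+ libraries. The log2 fold change was 2.27 ± 0.40 (SE, limma adjusted p = 0.00286) in WT and 2.52 ± 0.40 (adjusted p = 0.000883) in Lmo2-/-. With the length trend removed it was 1.56 ± 0.33 (limma adjusted p = 0.0113) and 1.12 ± 0.33 (adjusted p = 0.0405). Tet3 kept its call in each genotype when any of the 13 libraries was left out.

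**Figure D3:**
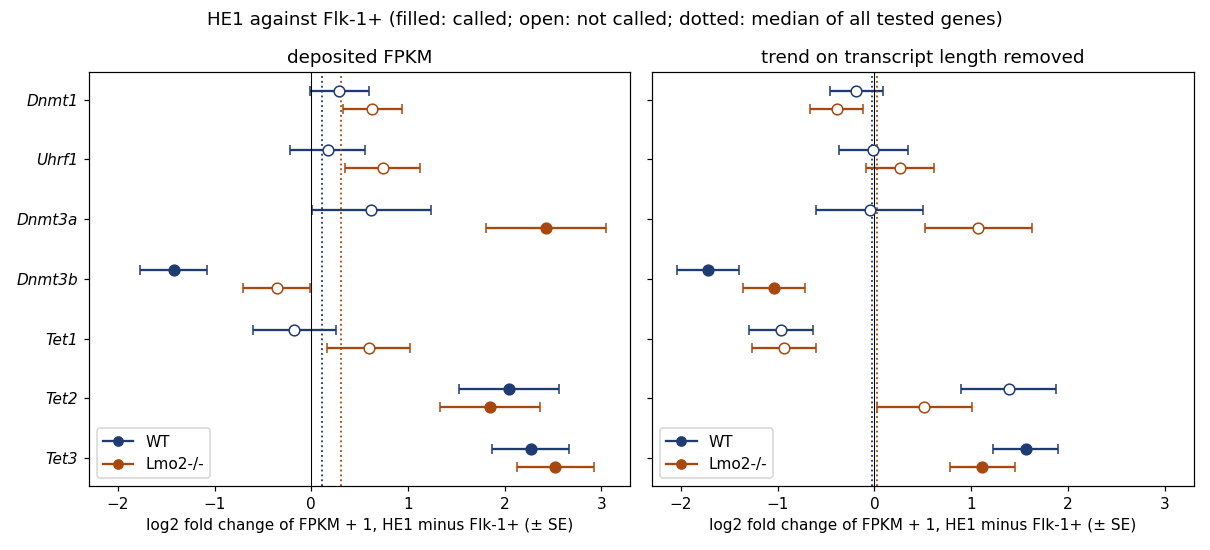
Log2 fold change of FPKM + 1 from Flk-1+ to HE1 (x axis, bars SE) for 7 genes (y axis) in WT (blue) and Lmo2-/- (brown), with the deposited FPKM (left) and after removing the length trend (right). Filled points are called and dotted lines are the median of all tested genes; in the right panel, Dnmt3b and Tet3 are called in both genotypes.

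Ratios within a library depend little on how the library was scaled. In Flk-1+ cells Tet1 made up most of the summed FPKM of the 3 TET genes, with 61.4% ± 6.84 (SD, n = 3) in WT, 61.0% ± 7.995 (n = 3) in Lmo2-/- and 64.4% ± 3.43 (n = 3) in Tal1-/-. In HE1 its share was 17.8% and 28.8% in WT and 30.7% and 34.9% in Lmo2-/-. All 4 HE1 libraries lay below all 9 Flk-1+ libraries, whose lowest share was 51.8%. The share fell by 33.1 percentage points over WT and Lmo2-/- cells (exact permutation test of the stage labels within genotype, two-sided, p = 0.01, the smallest of 100 arrangements; p = 0.015 adjusted over 3 ratios). It fell by 35.1 points after removal of the length trend (exact permutation p = 0.01). The library with the highest share of Tet2 was WT HE1 library 0 (55.5%) and that with the highest share of Tet3 was Lmo2-/- HE1 library 0 (45.6%), so the leading TET gene differed between HE1 libraries.

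The Dnmt3b to Dnmt3a ratio was 1.12, 1.08 and 1.27 in WT Flk-1+ libraries and 0.211 and 0.370 in WT HE1, computed on FPKM + 1. In Lmo2-/- cells it was 3.36, 1.80 and 0.647 in Flk-1+ and 0.467 and 0.112 in HE1, and in Tal1-/- Flk-1+ it was 0.903, 0.640 and 1.61. Every HE1 library thus had less Dnmt3b than Dnmt3a and lay below every Flk-1+ library. The log2 ratio fell by 2.42 (exact permutation within genotype, two-sided, p = 0.01, adjusted p = 0.015), and by 1.89 without the length trend (exact permutation p = 0.03). The Dnmt1 to Uhrf1 log2 ratio differed by 0.0052 between the stages (exact permutation p = 1), and by -0.42 without the length trend (exact permutation p = 0.1). Within a genotype, an exact permutation of 3 against 2 libraries cannot go below p = 0.1.

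**Figure D4:**
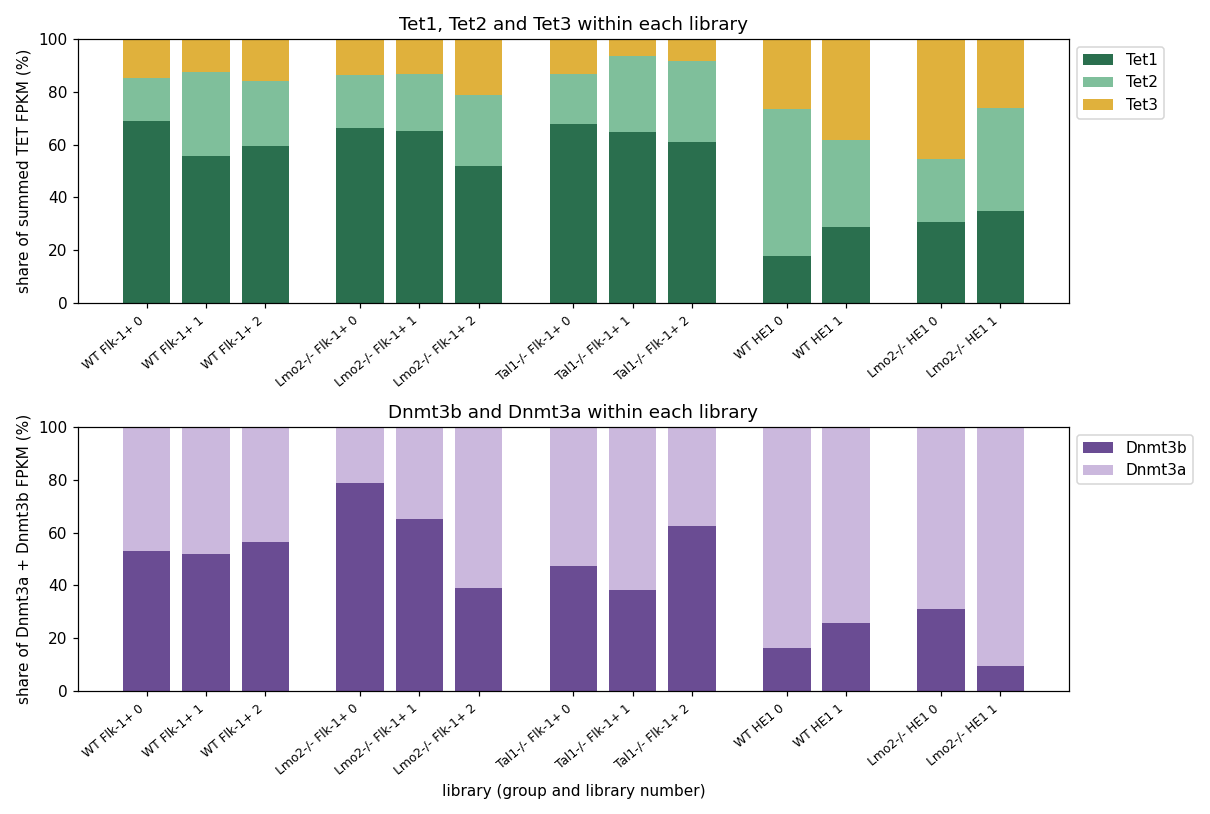
Shares in percent (y axes) of Tet1, Tet2 and Tet3 in their summed FPKM (top) and of Dnmt3b and Dnmt3a in theirs (bottom), 1 bar for each of the 13 libraries (x axis). The Tet1 share is 51.8% to 69.0% in Flk-1+ libraries and 17.8% to 34.9% in HE1 libraries.

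The comparison of genotypes in Flk-1+ cells asks whether loss of Lmo2 or Tal1 came with other levels of these genes. Lmo2 was also low in Tal1-/- Flk-1+ libraries, at 0, 7.58 and 1.29 FPKM against 21.6 to 30.8 in WT. Tal1 was 6.51, 29.0 and 6.64 FPKM in Lmo2-/-. The study also reported no detectable LMO2 protein in Tal1-/- and reduced TAL1 protein in Lmo2-/- Flk-1+ cells. The 2 losses are therefore not cleanly separate. No member was called after Lmo2 loss, with 0% of all tested genes called (limma; 307 genes, or 2.22%, had an unadjusted p below 0.05). The log2 fold changes ran from -0.55 ± 0.55 for Dnmt3a to 0.45 ± 0.35 for Tet3, and the libraries overlapped for all 7 members, whereas 8.21% of all tested genes did not overlap. The 95% intervals leave room for sizeable differences, such as -1.74 to 0.64 for Dnmt3a and -0.81 to 0.37 for Dnmt1. After Tal1 loss no member was called either, again with 0% of genes called and 843 (6.11%) with an unadjusted p below 0.05. The test did not call the targeted genes themselves. Lmo2 was at -2.55 ± 0.85 in Lmo2-/- and Tal1 at -2.84 ± 0.47 (limma adjusted p = 0.101) in Tal1-/-. The absence of a call in these comparisons thus says little about the members. With another test, Cuffdiff, the study did report genes that differed among these genotypes in Flk-1+ cells.

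In Tal1-/- Flk-1+ cells Dnmt1 was 38.8, 32.0 and 27.9 FPKM, below all WT libraries. Uhrf1 was 42.7, 44.7 and 45.8, just below the lowest WT value of 45.9. Libraries that did not overlap were seen for these 2 of 7 members and for 12.6% of all tested genes. The log2 fold change was -0.62 ± 0.27 for Dnmt1 (limma adjusted p = 0.797, 95% interval -1.22 to -0.03) and -0.43 ± 0.35 for Uhrf1 (adjusted p = 0.963). For Dnmt3b it was -0.44 ± 0.31, for Tet1 0.52 ± 0.38, for Tet2 0.56 ± 0.46, for Dnmt3a -0.20 ± 0.55 and for Tet3 -0.18 ± 0.35, none of which passed the test. Without the length trend, Tal1 loss ran from -0.66 ± 0.25 for Dnmt1 to 0.49 ± 0.44 for Tet2. Lmo2 loss then ran from -0.55 ± 0.50 for Dnmt3a to 0.45 ± 0.30 for Tet3. No member was called in either, against 0.00752% of all genes in each. S-phase genes, a list of 18 of which 17 were tested, summed to 389 to 414 FPKM in Tal1-/- and 341 to 458 in WT Flk-1+. Tal1-/- against Lmo2-/- Flk-1+ cells gave 0 of 7 calls against 0.0145% of all genes (limma; 822 genes with an unadjusted p below 0.05), with values from -0.63 ± 0.35 for Tet3 to 0.35 ± 0.55 for Dnmt3a. The control libraries of WT are shared by both losses.

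In HE1, Lmo2 loss gave no call among the 7 members, against 3.01% of all tested genes, 297 higher and 118 lower (limma; 20.7% had an unadjusted p below 0.05). After quantile normalization this split was 123 and 89, and after rescaling 116 and 112. Dnmt3b was 7.95 and 8.58 FPKM in WT and 17.98 and 16.3 in Lmo2-/- HE1, a log2 difference of 0.97 ± 0.38 (limma adjusted p = 0.168). Tet1 was 28.4 and 31.0 in WT and 42.4 and 99.5 in Lmo2-/-, a log2 difference of 1.11 ± 0.47 (adjusted p = 0.202). The 2 genotypes did not overlap for Dnmt1, Dnmt3b, Tet1 and Tet3, 4 of 7 members, with the Lmo2-/- libraries higher, and 39.7% of all tested genes did not overlap. Dnmt3a, Tet2 and Uhrf1 overlapped. In the authors' pooled FPKM per condition, Dnmt1 was instead lower in Lmo2-/- than in WT HE1 (39.9 against 51.5). Uhrf1 (60.2 against 69.4) and Tet2 (23.2 against 35.6) were lower there as well. Dnmt3b (12.8 against 9.15), Tet1 (33.1 against 21.6), Tet3 (47.0 against 42.3) and Dnmt3a (35.3 against 16.6) were higher. For every tested member except Uhrf1, the pooled Lmo2-/- HE1 value lay below both libraries of that group. The pooled values are thus not averages of the library values used here. Without the length trend the differences were 0.59 ± 0.35 for Dnmt3b, 0.37 ± 0.36 for Tet1 and 0.0028 ± 0.36 for Tet3, and none passed, with 2.19% of all genes called. Leaving out Lmo2-/- HE1 library 0, so that library 1 stood alone, gave calls for Dnmt3a (2.22) and Tet1 (1.71) beside 2177 genes, which were not there with library 1 left out (0.29 and 0.50). Of 10 tested fibroblast and smooth muscle markers 3 were called higher in Lmo2-/- than in WT HE1 and 0 lower, among them the collagen genes Col1a1 (3.69 ± 0.77) and Col3a1 (3.54 ± 0.64). The smooth muscle genes Tagln (-0.45 ± 0.62) and Myl9 (-1.58 ± 0.85), named after their values were seen, were not called, and the part of other cells in these values was not tested. Fewer cells of a type and less RNA per cell cannot be told apart in these bulk libraries. In the test of whether the stage change differed between genotypes, 0 of 7 members were called against 0.348% of all genes (limma; 12.1% had an unadjusted p below 0.05), with values from -0.20 ± 0.73 for Tet2 to 1.81 ± 0.87 for Dnmt3a.

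The other genes of the pathway were taken from lists chosen by function. As the mean of WT and Lmo2-/-, 18.9% of all tested genes were called higher and 3.18% lower in HE1 with the deposited values, and 10.5% and 4.11% without the length trend, and each list is to be read against these shares. Among cofactors of maintenance methylation, 1 of 7 tested was higher and 3 lower in HE1 without the length trend, against 2 higher and 2 lower with the deposited values. Uhrf2, a relative of Uhrf1, rose by 1.83 ± 0.37 (log2, limma adjusted p = 0.00379) in Lmo2-/- cells, and by 1.37 ± 0.35 (adjusted p = 0.0212) without the length trend. Pcna, the clamp that carries replication enzymes, fell by 2.76 (SE 0.60, adjusted p = 0.00520) in Lmo2-/-, from 7.004 to 15.2 FPKM in Flk-1+ to 2.42 and 0 in HE1. Without the length trend Pcna fell by 2.405 (SE 0.58, limma adjusted p = 0.0161). The 0 was in Lmo2-/- HE1 library 1, in which many well expressed genes were listed at 0.

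Of 7 tested genes that steer de novo methylation through histone marks or KRAB zinc fingers, 4 were called higher in HE1 with the deposited values (18.9% of all genes) and 2 without the length trend (10.5%), with 0 lower. Setd2 and Nsd1, which place the histone marks that DNMT3 enzymes read, rose in both genotypes with the deposited values. Without the length trend both were called in the mean of the genotypes, and Setd2 in Lmo2-/- alone as well. The log2 fold change of Setd2, whose locus also carries the gene model Gm42763, was 1.72 ± 0.45 (limma adjusted p = 0.0302) in WT and 2.67 ± 0.45 (adjusted p = 0.00130) in Lmo2-/-. That of Nsd1 was 1.36 ± 0.40 (limma adjusted p = 0.0473) and 2.38 ± 0.40 (adjusted p = 0.00123). The median of the list was 0.79 with the deposited values, against 0.20 for all tested genes, and 0.13 against -0.0031 without the length trend.

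Readers of methylated CpG had 5 of 8 genes called higher with the deposited values (18.9% of all genes) and 2 without the length trend (10.5%), with 0 lower in both. Zbtb38, a zinc finger protein that binds methylated DNA, rose by 2.58 ± 0.40 (log2, limma adjusted p = 0.00139) in WT and 2.90 ± 0.40 (adjusted p = 0.000418) in Lmo2-/-. It was 2.03 to 4.30 FPKM in WT Flk-1+ and 19.0 to 23.3 in WT HE1, and 2.75 to 3.87 and 26.4 to 34.7 in Lmo2-/-. Zbtb38 was also called in both genotypes without the length trend. The methyl-CpG binding protein gene Mbd2 was called in Lmo2-/- with the deposited values (2.60 ± 0.88, limma adjusted p = 0.0456) and not without the length trend (2.72 ± 0.89, adjusted p = 0.0567). Its 2 Lmo2-/- HE1 libraries were far apart, at 12.002 and 186 FPKM.

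Base excision repair and other demethylation factors were mixed, with 1 of 12 tested higher and 1 lower in the deposited values and 0 higher and 1 lower (Ogt, named after its values were seen) without the length trend. Lig3, a DNA ligase, rose in Lmo2-/- cells by 1.63 ± 0.34 (log2, limma adjusted p = 0.00451) and Apex1, the abasic site nuclease, fell by 2.92 (SE 0.79, adjusted p = 0.0168) with a value of 0 in Lmo2-/- HE1 library 1. Neither call was kept without the length trend, where Lig3 was 0.60 ± 0.30 (limma adjusted p = 0.188) and Apex1 -2.43 ± 0.77 (adjusted p = 0.05003). Of 10 genes that supply S-adenosylmethionine and 2-oxoglutarate, 3 were higher in the deposited values and 2 without the length trend, with 0 lower. Of 18 germline genes known to be silenced by promoter methylation, 1 was expressed well enough to be tested. This was Tex15, whose level was higher in Tal1-/- than in Lmo2-/- Flk-1+ cells by 3.01 ± 0.41 (log2, limma adjusted p = 0.0342). Tex15 was 16.8 to 18.4 FPKM in Tal1-/-, 0.965 to 1.62 in Lmo2-/- and 1.78 to 5.29 in WT Flk-1+ libraries. Against WT Flk-1+ cells, Tex15 was not called after Tal1 loss (log2 fold change 2.199) or after Lmo2 loss (-0.808). The difference between Tal1-/- and Lmo2-/- was 2.89 to 3.66 over 24 alternatives, in 12 of which it was not called (limma adjusted p from 0.0049 to 0.186 over all 24). These 12 were the smaller pseudocount, no filter on low values, the replicate block (adjusted p = 0.131), and leaving out any Lmo2-/- or Tal1-/- Flk-1+ library, WT Flk-1+ library 2 or either WT HE1 library.

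Markers of cell state moved between the stages beside the members. The 12 markers of undifferentiated ES cells summed to 27.5 to 81.4 FPKM in Flk-1+ libraries and 2.49 to 10.2 in HE1, with 2 of 8 tested genes lower (Tdgf1 and Pou5f1). Of 8 early mesoderm genes 5 were lower, and of 9 endothelial genes 8 were higher, with and without the length trend. Of 17 S-phase genes 2 were higher and 0 lower (18.9% and 3.18% of all genes), or 1 higher and 1 lower without the length trend (10.5% and 4.11%), and the list summed to 329 to 485 FPKM over all 13 libraries. Of 14 G2/M genes 4 were higher and 0 lower, or 2 and 0 without the length trend, with sums of 443 to 636 FPKM in Flk-1+ and 895 to 1411 in HE1. Among Flk-1+ cells the ES cell sum was 59.3 to 81.4 FPKM in WT, 27.5 to 50.1 in Lmo2-/- and 37.3 to 56.7 in Tal1-/-. The endothelial sum was 37.6 to 66.5, 36.5 to 58.0 and 9.34 to 21.8 in the same order. A list of 12 haematopoietic genes summed to 17.5 to 26.0, 5.73 to 9.24 and 4.17 to 10.4. No gene of these lists was called after either loss in Flk-1+ cells. The part of these cell states in the levels of Dnmt3b, Tet1 or Tet3, between stages or genotypes, was not tested.

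**Figure D5:**
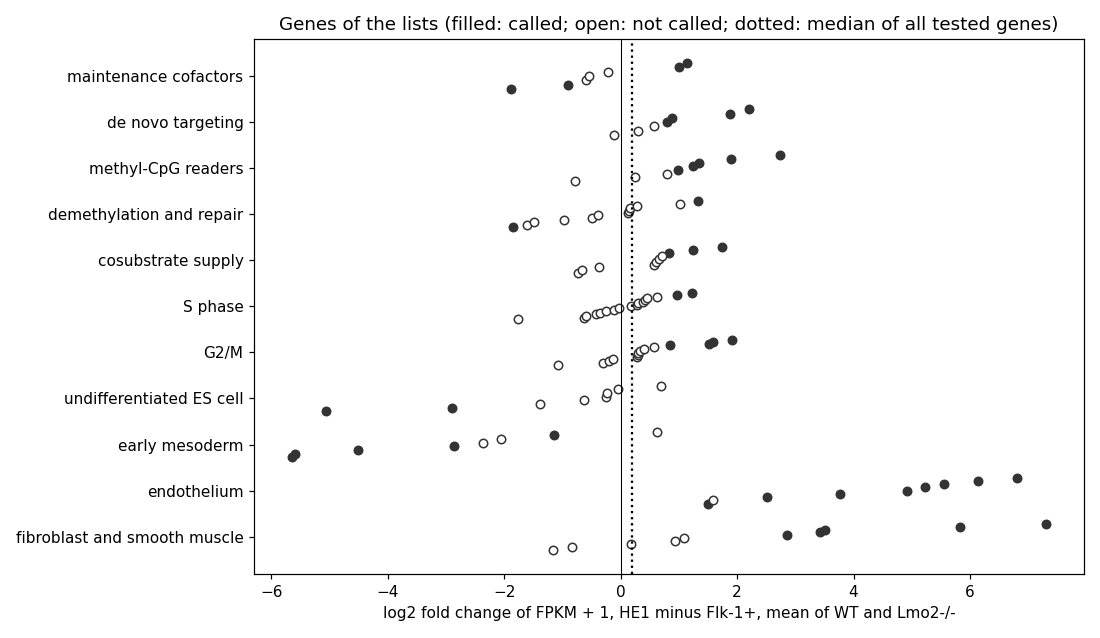
Log2 fold change of FPKM + 1 from Flk-1+ to HE1, as the mean of WT and Lmo2-/- (x axis), for each tested gene of 11 lists (y axis), with the deposited values; filled points are called and the dotted line is the median of all tested genes (0.20). Endothelial genes lie to the right (8 of 9 called higher) and early mesoderm genes to the left (5 of 8 called lower).

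The genes most like each member in pattern were found by Pearson r over the 13 libraries among 4996 tested genes with a mean FPKM above 10. As libraries share their depth and length dependence, these values are given as a description. Tet3 was matched most closely by St5, 9430020K01Rik and Lamc1 (r = 0.98 each), and Tet2 by Pi4ka (0.94), Sh2b3 (0.94) and a locus shared by Cluap1, Gm20695 and Naa60 (0.96). Dnmt3b was matched by Plekha5 (0.92), Tenm4 (0.87) and Fzd7 (0.84). The closest patterns were Atp11a, Ago1 and Sipa1l3 for Dnmt3a (0.95 to 0.93), Rnf2, Cdkn2aipnl and Slc38a4 for Tet1 (0.92 to 0.91), Pcnt, Arhgef1 and Aff3 for Dnmt1 (0.94 to 0.93) and Tcf7l2, Arl8a and Pprc1 for Uhrf1 (0.96 to 0.92). Between members the highest r was 0.86, for Uhrf1 and Dnmt3a, and the lowest was -0.69, for Dnmt3b and Tet2.

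Some loci overlap other annotated genes in GENCODE M21. Dnmt3a (chromosome 12, 3806007 to 3914443) and Dnmt3b (chromosome 2, 153649450 to 153687730) have the antisense genes Dnmt3aos and Dnmt3bos, Tet2 (chromosome 3, 133463679 to 133545139) overlaps Gm42567, and Tet3 (chromosome 6, 83362373 to 83459084) overlaps B230319C09Rik on the other strand. On its own strand Tet3 holds 5430434F05Rik and Mir6374, and Tet1 (chromosome 10, 62804570 to 62908996) holds Gm48353 and Gm26479. Dnmt1 lies on chromosome 9 from 20907209 to 20959888 and holds Mir7081 on its own strand. Uhrf1 lies on chromosome 17 from 56303321 to 56323486. Dnmt3l lies on chromosome 10 from 78041947 to 78063622 and overlaps Aire on the other strand. The deposited loci differed from these coordinates for some members. They ended at 133585053 for Tet2 and 62899118 for Tet1, and started at 153648690 for Dnmt3b and 78030022 for Dnmt3l. The kit was stranded, but the strand setting of the counting is not given in the sources used here, so the share of antisense reads in these values is uncertain.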

How the data were processed

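RNAseq was analysed in 13 libraries of 5 groups (3 each for WT, Lmo2-/- and Tal1-/- Flk-1+ cells, 2 each for WT and Lmo2-/- HE1). The authors deposited FPKM per library and pooled FPKM per condition, scaled by them. Their processing notes name TopHat2 2.0.9, Cufflinks 2.0.0 and Cuffdiff 2.0.1, and the build is mm10. A further table, with fold changes and p-values of the authors' own comparisons, was not used. The study's methods state a minimum of reads per library, but the fragments behind each value are not given, so no counting interval was possible. The methods describe the libraries as independent and the samples as biological replicates, and library numbers come from column names.

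Loci over 200 bp with FPKM above 1 in at least 2 libraries were kept (13802 of 45250). Values were tested as log2(FPKM + 1), which understates changes of low genes, in 1 fit of all 13 libraries with limma 3.58.1 (trend; R 4.3.3), and p-values were adjusted by Benjamini-Hochberg over all 13802 genes. A gene was called at adjusted p below 0.05 and a mean above 10 FPKM in a group. Ratios were tested by exact permutation of stage labels within genotype. Fits were tested on simulated data. The 8 members, the gene lists and the tests were chosen with earlier results of these data known. Besides members, the text names up to 2 called genes of each list and comparison whose libraries did not overlap, by size of change, and the 3 genes most like each member. Longest GENCODE M21 transcripts matched 13303 genes (96.4%), and the trend on their log10 length was removed from each library by lowess (span 0.3). Alternatives were another pseudocount, filters, scalings, weights, fits and each library left out. Same-numbered libraries of different genotypes at the same stage did not deviate together (correlations of -0.184 to 0.169), so the main fit did not pair them. Same-numbered Flk-1+ and HE1 libraries were not checked in this way.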

Additional observations from a re-analysis of the deposited data

How the results depend on the processing

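The depth of each library is not given beyond a stated minimum, groups hold 2 or 3 libraries, and Lmo2-/- HE1 library 1 stood apart, so members in HE1 are the least certain. When single libraries were dropped, the number of members called was 1 to 3 for the stages in WT, 1 to 4 in Lmo2-/-, 2 to 5 in the mean of both and 0 to 2 for Lmo2 loss in HE1. It was 1 for the stages in Lmo2-/- with only the groups compared or with array weights, against 3, and 2 in the mean with array weights, against 4. With WT libraries alone or Lmo2-/- libraries alone, the smallest possible p is 0.1. The Dnmt3b to Dnmt3a log2 ratio then differed by -2.05 and -2.79 (exact permutation p = 0.1 and 0.2). The Tet1 share differed by -38.1 and -28.2 points (exact permutation p = 0.1 in each). With a library left out these differed by -2.93 to -1.90 and by -35.9 to -30.4 points. The Dnmt1 to Uhrf1 log2 ratio turned to -0.42 without the length trend and -0.11 in Lmo2-/- alone, and ran from -0.27 to 0.28 with a library left out.

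Directions that turned were those of members not called with the deposited values, of which Tet1 was called lower in the mean of both genotypes without the length trend. With quantile normalization, a common median and the length trend removed, in that order, Dnmt1 was -0.19, -0.20 and -0.19 for the stages in WT, -0.44, -0.36 and -0.39 in Lmo2-/-, -0.31, -0.28 and -0.29 in the mean, and -0.44, -0.38 and -0.42 for Lmo2 loss in HE1. Tet1 was -0.50, -0.39 and -0.94 for the stages in Lmo2-/- and -0.58, -0.53 and -0.95 in the mean, and Tet2 was -0.48, -0.39 and -0.56 for Lmo2 loss in HE1. With the first 2 of these, Uhrf1 was -0.28 and -0.32 (stages, WT), -0.34 and -0.25 (Lmo2-/-), -0.31 and -0.29 (mean) and -0.23 and -0.14 (Lmo2 loss in HE1). Without the length trend Uhrf1 was -0.013 and Dnmt3a -0.050 for the stages in WT. With array weights Tet1 was 0.035 for the stages in WT and Dnmt3b 0.0066 for Lmo2 loss in Flk-1+. With a library left out, Tet1 ran from -0.38 to 0.14 (stages, WT), -0.013 to 1.197 (Lmo2-/-) and -0.095 to 0.51 (mean), Uhrf1 from -0.10 to 0.44 (stages, WT) and -0.28 to 1.00 (Lmo2 loss in HE1), Tet2 from -0.76 to 0.97 (Lmo2 loss in HE1) and -1.06 to 0.67 (genotype by stage), Dnmt3b from -0.27 to 0.089 (Lmo2 loss in Flk-1+), Dnmt3a from -0.44 to 0.10 and Tet3 from -0.46 to 0.047 (Tal1 loss), and Dnmt3a from -0.083 to 0.85 (Tal1-/- against Lmo2-/-). The cause was not tested.

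Calls among all genes changed more. Lmo2 loss in HE1 called 415 genes, against 212 with quantile normalization, 228 with a common median, 51 with array weights and 0 with only the groups compared. The stages in Lmo2-/- called 2707 genes, against 1248, 1363, 976 and 1465 with the same settings, and 1227 without the length trend, and the stages in WT 964, against 1682 with array weights. With the replicate block, the members called stayed at 3, 3 and 4 for the stages in WT, Lmo2-/- and the mean, beside 704, 2189 and 2485 of 13802 genes. Dnmt3b was then at -1.51 and Tet3 at 2.23 in WT, and genes with a different stage change by genotype numbered 14 against 48. Tex15 lost its call with the block (3.01, limma adjusted p = 0.131).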
